A study of Mus musculus with 36 samples.

Results

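Arc, the 3 Homer genes and the 3 Shank genes encode scaffold and adaptor proteins of the postsynaptic density, the protein mat under excitatory synapses. The 7 genes (Arc, Homer1, Homer2, Homer3, Shank1, Shank2 and Shank3) were found by their mouse symbols among the 37315 Ensembl gene identifiers of the count table, and all 7 had enough counts to be tested in every region. They are described here across 36 RNA-seq libraries of polyadenylated RNA from wild-type mice on a BL/6 background. The medial and the lateral part of the entorhinal cortex (MEC and LEC) and the hippocampal fields CA3 and CA1 were dissected and each sampled in 3 conditions, with 3 libraries per region and condition. The conditions were fear (a foot shock), context (exposure to the context with no shock) and home cage (neither), and tissue was taken 90 minutes after the behaviour. All mice, home cage included, were housed singly and handled for 3 minutes a day on 5 days. The labels give neither age nor sex, and do not say whether a library holds 1 mouse or several, or whether same-numbered libraries come from 1 mouse. The p-values therefore measure the spread between these libraries.

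At the postsynaptic density, Shank proteins are large platforms that bind the PSD-95 complex through the Dlgap (SAPAP) proteins and bind Homer at a proline-rich stretch. Homer proteins pair through a coiled coil and tie Shank to group I metabotropic glutamate receptors and to the calcium channels of internal stores. Homer1 also makes a short form, Homer1a, which lacks the coiled coil, is induced by neuronal activity and uncouples those links. Arc is an immediate-early gene whose RNA travels to dendrites, and its protein drives the removal of AMPA receptors from the synapse. Arc and Homer1 are thus the activity-regulated members, and the other 5 genes are their scaffold relatives.

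The libraries held 21871412 to 68974340 counts, with a median of 28098008. Markers of the dissected fields were compared first. The mean level of 5 CA3 pyramidal markers was 6.18 to 6.55 log2 CPM (counts per 1000000) in CA3 libraries and 2.98 to 5.46 in CA1 libraries, and that of 4 CA1 pyramidal markers was 4.94 to 6.50 in CA3 and 6.87 to 8.51 in CA1. The CA1 markers did not tell CA1 from MEC, where they stood at 6.36 to 7.02. The mean level of 7 cortical layer markers was 5.69 to 6.03 in MEC and 5.11 to 5.76 in LEC, against 4.08 to 4.83 in the hippocampal fields, and no list used here tells MEC from LEC. Markers of dentate granule cells, which lie next to both fields, were present in CA1 in differing amounts: 4.96 to 5.47 after fear, 1.82 to 5.11 after context and 4.71 to 5.71 in home cage. In CA3 they stood at 2.43 to 4.40 after fear and 1.70 to 3.73 after context, against 3.01 to 4.03 in home cage. The second context and the second home cage library lay at opposite ends of the first principal component in both CA3 and CA1. Counts here are per gene, so the short and long forms of Homer1 were counted together. In these dissected tissues, fewer cells of a type and less RNA per cell cannot be told apart.

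Homer1 (ENSMUSG00000007617; GRCm38 chr13:93299635-93405129, plus strand, 12 annotated transcripts) was the member whose fear and context libraries lay above the home cage libraries in every region. The 250 bases before its RefSeq start are shown because Homer1 was the only member to be called in more than 1 region in the same direction. They are set beside those of Shank3, a scaffold of the same density that was called in 1 of its 8 comparisons with home cage. Capitals mark TGACG, the core of the cAMP response element (CRE), which the transcription factor CREB binds. The Homer1 window is at chr13:93303507-93303756, plus strand, and the Shank3 window at chr15:89499358-89499607, plus strand, both from RefSeq on GRCm38.p6.
Homer1: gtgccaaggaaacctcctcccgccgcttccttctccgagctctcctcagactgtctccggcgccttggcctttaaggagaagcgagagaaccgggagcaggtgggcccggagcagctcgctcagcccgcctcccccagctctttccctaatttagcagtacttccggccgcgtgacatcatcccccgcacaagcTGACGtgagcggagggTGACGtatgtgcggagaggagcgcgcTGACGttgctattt
Shank3: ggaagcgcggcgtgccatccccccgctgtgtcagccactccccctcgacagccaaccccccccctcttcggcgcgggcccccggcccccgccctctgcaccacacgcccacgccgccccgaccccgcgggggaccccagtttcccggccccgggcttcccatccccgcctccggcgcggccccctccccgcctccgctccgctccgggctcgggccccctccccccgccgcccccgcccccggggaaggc

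The Homer1 window held 3 copies of TGACG, which began 56, 40 and 14 bases before the start and lay on the plus strand. Among 32851 mouse promoter windows of the same length, searched on both strands, 17.8% held at least 1 and 0.688% held 3 or more. No other motif searched was found in it: the full CRE (TGACGTCA), the AP-1 site (TGANTCA), the GC box (GGGCGG), the TATA box (TATAAA), the EGR site (GCGNGGGCG), and, by name, the CArG box and the MEF2 site. Windows were given for 4 of the 7 genes, and those of Homer2 and Homer3, not shown, held no TGACG. That of Shank3 held no TGACG, 4 GC boxes (32.7% of windows hold at least 1) and 2 EGR sites (4.7% of windows), both of which share bases with a GC box. The Shank3 window was 82.4% G or C and the Homer1 window 62.4%, against a median of 52.4% over all windows. A second RefSeq start of Homer1 had no TGACG in its window. These matches describe letters, not binding.

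In MEC, Homer1 stood at 191, 248 and 155 CPM after fear and at 232, 235 and 178 CPM after context, against 103, 108 and 90.2 CPM in home cage. All fear and all context libraries lay above all home cage libraries, as they did for 12% (fear) and 7.91% (context) of all genes tested in MEC. The change was 1.02 ± 0.16 on the log2 scale (± SE) for fear against home cage (adjusted p = 0.00315, edgeR quasi-likelihood test with Benjamini-Hochberg adjustment over all genes tested in the region) and 1.14 ± 0.16 for context against home cage (adjusted p = 0.00824). Both comparisons use the same home cage libraries. Of the 7 members, Homer1 and Arc were called after fear and Homer1 alone after context, at an adjusted p under 0.05. Of all 16314 genes tested in MEC, 9.56% were called after fear and 0.57% after context.

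In CA3, Homer1 stood at 161, 139.5 and 152 CPM after fear and at 163, 268 and 178 CPM after context, against 97.1, 75.5 and 116 CPM in home cage. Again no fear or context library reached down to the home cage range, and the second context library was the highest of the 9. In CA3, 9.3% of genes had every fear library and 10.5% every context library above home cage. Context against home cage gave 1.20 ± 0.22 (adjusted p = 0.045), in a comparison that called 13.9% of 16145 genes, and fear against home cage gave 0.74 ± 0.22 (adjusted p = 0.162), in one that called 0.00619%.

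In CA1, Homer1 stood at 199, 139.7 and 172 CPM after fear and at 200.0, 336 and 196 CPM after context, against 134, 84.0 and 109.7 CPM in home cage. In LEC the values were 239, 171 and 189.9 CPM after fear and 239, 225 and 170.4 CPM after context, against 109, 125 and 159.7 CPM in home cage. In both regions the fear and context libraries all lay above the home cage libraries, and none of these differences passed. In LEC, and after fear in CA1, the gap between the groups was smaller than the SD within either group. The same order was met by 8.37% of genes after fear and 9.71% after context in CA1, and by 6.85% after fear and 4.25% after context in LEC. The log2 changes were 0.71 ± 0.25 after fear (adjusted p = 0.136) and 1.23 ± 0.25 after context (adjusted p = 0.104) in CA1, and 0.58 ± 0.20 (adjusted p = 0.573) and 0.67 ± 0.20 (adjusted p = 1) in LEC. In these 4 comparisons edgeR called 0% of all genes and none of the members. At an unadjusted p under 0.05 there were 1 member after fear and 2 after context in CA1, and 1 and 1 in LEC. DESeq2 called 1 member after fear and 1 after context in CA1, and none in LEC.

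Of 15331 genes tested in all 4 regions, 0.626% had every fear library above every home cage library in each region, and 0.326% had every context library above every home cage library in each region. Homer1 met both conditions and no other member met either. Averaged over the 4 regions in a fit of all 36 libraries, Homer1 rose by 0.79 ± 0.12 after fear (adjusted p = 2.7e-05) and by 1.08 ± 0.12 after context (adjusted p = 3.95e-06), and it was the only member called in either, in comparisons that called 24.1% and 22.1% of 17875 genes. Fear against context gave -0.29 ± 0.12 over the 4 regions (adjusted p = 0.118, with 3.37% of genes called). The fit treats the libraries of the 4 regions as separate, and the labels do not say whether they share mice. If they do, the SE and p-values of these averages may be too small.

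**Figure D1:**
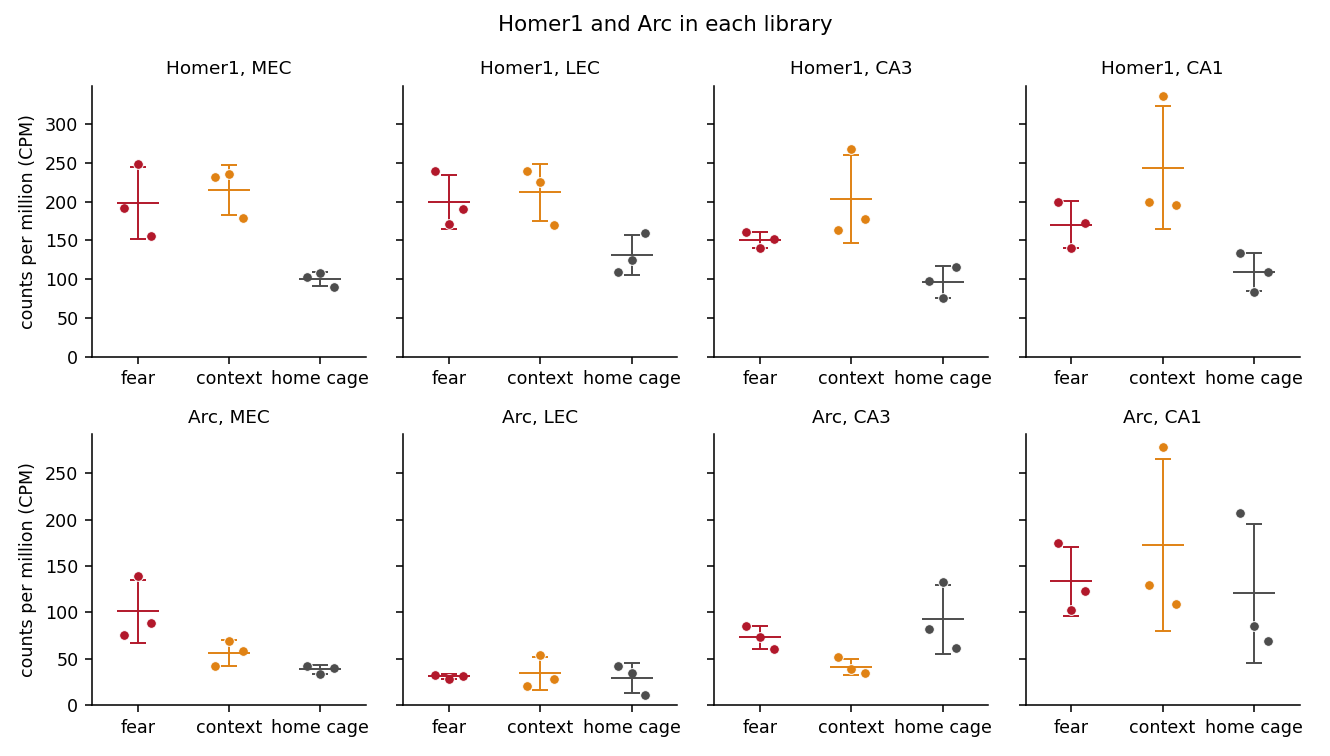
Homer1 (upper row) and Arc (lower row) in CPM in each of the 36 libraries, by region and condition; points are libraries, and the wide mark with bars is the mean ± SD (n = 3). Homer1 points after fear and context all lie above the home cage points in each region, whereas Arc does so after fear in MEC alone and lies below home cage after context in CA3.

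Arc (ENSMUSG00000022602; GRCm38 chr15:74669083-74672570, minus strand) rose after fear in MEC. It stood there at 75.9, 139.6 and 88.3 CPM after fear and at 41.9, 69.5 and 58.7 CPM after context, against 42.8, 33.5 and 39.8 CPM in home cage. The fear libraries lay above all context and all home cage libraries, while 1 context library lay within the home cage range. In MEC, 11.9% of genes had every fear library above every context library. Fear against home cage gave 1.43 ± 0.22 (adjusted p = 0.00351, edgeR) and context against home cage 0.59 ± 0.22 (adjusted p = 0.228). Fear against context gave 0.84 ± 0.22 (adjusted p = 0.312).

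Markers of other cell types moved with the fear libraries of MEC. Of 9 oligodendrocyte markers, 6 were called higher and none lower after fear. Their summed level was 2538 to 3524 CPM after fear and 2478 to 2878 CPM after context, against 1714 to 2474 CPM in home cage, and none of the 9 was at 0. With the mean level of these markers in the model, Arc had 0.85 ± 0.40 (adjusted p = 0.29) and Homer1 0.94 ± 0.31 (adjusted p = 0.164) for fear against home cage, and Homer1 1.08 ± 0.25 (adjusted p = 0.0805) for context. The mean log2 level of these markers was 7.14 to 7.58 after fear and 7.09 to 7.33 after context, against 6.42 to 6.99 in home cage. Marker level and condition thus went together in MEC, and a lost call cannot tell one from the other. The mean log2 levels of 3 other marker lists also lay higher after fear than in home cage, with no overlap. The summed level of 5 endothelial markers, of which 3 were called higher, was 75.1 to 104 CPM after fear and 59.3 to 75.3 CPM after context, against 56.4 to 61.5 CPM in home cage. That of 6 interneuron markers, of which 2 were called higher, was 789 to 847 CPM after fear and 707 to 812 CPM after context, against 618 to 686 CPM in home cage. That of the 7 cortical layer markers, of which 3 were called higher, was 492 to 562 CPM after fear and 469 to 521 CPM after context, against 442 to 453 CPM in home cage. No marker of these lists was at 0, and none was called after context. The part of these cells in the result was not tested.

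Both fear calls in MEC held without any single library, and the context call of Homer1 was lost without the first context library (log2 change 1.09). In the fit of all 36 libraries the fear call of Arc was lost (1.45 ± 0.43, adjusted p = 0.0865), as was the context call of Homer1 (1.17 ± 0.24, adjusted p = 0.13), while the fear call of Homer1 held (1.05 ± 0.24, adjusted p = 0.023).

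In CA3, Arc stood at 85.0, 73.6 and 60.9 CPM after fear and at 51.5, 38.6 and 35.2 CPM after context, against 82.0, 133 and 62.0 CPM in home cage. The context libraries lay below all others, and the second home cage library was the highest. Of all genes in CA3, 22.6% had every context library below every home cage library and 13.5% had every fear library above every context library. Context against home cage gave -1.02 ± 0.24 (adjusted p = 0.045) and fear against home cage -0.24 ± 0.24 (adjusted p = 0.616). Arc and Homer1 were thus called in opposite directions in the same 6 libraries.

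In CA1, Arc had its highest levels and its widest spread: 175, 103 and 123 CPM after fear and 130.0, 278 and 109 CPM after context, against 207, 85.0 and 69.4 CPM in home cage. In LEC it had its lowest: 33.1, 28.4 and 31.5 CPM after fear and 20.8, 54.3 and 28.5 CPM after context, against 41.9, 34.7 and 11.4 CPM in home cage. The groups overlapped in each of these comparisons, and the log2 changes against home cage were 0.21 ± 0.52 and 0.59 ± 0.52 in CA1 and 0.07 ± 0.40 and 0.22 ± 0.40 in LEC. Fear against context called no member in any region with edgeR and 0% of all genes in each. At an unadjusted p under 0.05 there were 2 members in MEC, 0 in LEC, 4 in CA3 and 1 in CA1, and DESeq2 called 1 (Arc) in MEC, 0 in LEC, 1 (Arc) in CA3 and 0 in CA1. The difference between the fear responses of Arc in MEC and LEC was 1.36 ± 0.60 (adjusted p = 0.725), so a response particular to MEC was not shown. None of the 42 differences between regional responses (7 genes, 6 contrasts) passed with edgeR, 5 had an unadjusted p under 0.05 and DESeq2 called none. Of all genes, 0.0168% were called for the fear response of MEC minus LEC and 0% for each of the other 5 contrasts.

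Shank1 (ENSMUSG00000038738; GRCm38 chr7:44310253-44360572) and Shank3 (ENSMUSG00000022623; chr15:89499623-89560261), both on the plus strand, fell with Arc after context in CA3. Shank3 stood at 150.2, 167 and 128 CPM after fear and at 128, 59.8 and 73.8 CPM after context, against 167, 332 and 147 CPM in home cage. Shank1 stood at 273, 297 and 249 CPM after fear and at 216, 110 and 127 CPM after context, against 249, 539 and 269.6 CPM in home cage. For both genes the context libraries lay below all home cage libraries, and the second home cage library was far above the rest. Context against home cage gave -1.18 ± 0.31 for Shank3 and -1.10 ± 0.29 for Shank1 (both adjusted p = 0.0457), which with Arc and Homer1 made 4 of the 7 members called in CA3.

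The base composition of the libraries moved with these values. Over all annotated transcripts of a gene, pooled by length, Homer1 was 42.0% G or C and Homer2 48.6%. Shank1, Shank3, Homer3, Arc and Shank2 were 62.5%, 62.1%, 59.2%, 59.0% and 56.0%, against a median of 50% over the genes tested. The gap between the most and the least GC-rich 25% of genes, on the log2 scale and relative to the mean of the region, was 0.25, 0.34 and 0.09 in the CA3 fear libraries and 0.03, -1.17 and -0.74 in the CA3 context libraries, against 0.21, 0.85 and 0.15 in the CA3 home cage libraries. The second context library was thus the poorest in GC-rich transcripts and the second home cage library the richest. With an offset for GC content and length in each library, context against home cage in CA3 gave -0.18 ± 0.10 for Shank3 (adjusted p = 0.301), -0.08 ± 0.10 for Shank1 (adjusted p = 0.697) and -0.11 ± 0.15 for Arc (adjusted p = 0.707), and none of the 3 was called. Homer1 gave 0.77 ± 0.13 there (adjusted p = 0.0435) and stayed called.

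All 4 CA3 calls were also lost when any 1 of 7 libraries was left out (context replicate 2 or 3, any fear library, or home cage replicate 1 or 2). Without both the second context and the second home cage library, the values were 0.78 for Homer1, -0.78 for Arc, -0.65 for Shank1 and -0.58 for Shank3, none of them called. Marker levels of other cells also differed between these CA3 libraries. The summed level of 5 blood markers, of which 4 were called lower after context, was 15.1 to 20.3 CPM after fear and 9.04 to 19.7 CPM after context, against 32.4 to 58.4 CPM in home cage. That of 5 microglia markers, of which 1 was called lower, was 199 to 221 CPM after fear and 169 to 186 CPM after context, against 190.2 to 258 CPM in home cage. The 7 dentate granule markers, of which 1 was called lower, summed to 59.2 to 245 CPM after fear and 43.4 to 178 CPM after context, against 76.8 to 174 CPM in home cage. The 4 CA1 pyramidal markers summed to 332 to 388 CPM after fear and 123 to 209 CPM after context, against 191 to 390 CPM in home cage. No marker of these lists was at 0. With the mean level of the dentate granule markers in the model, context against home cage gave 1.35 ± 0.24 for Homer1 (adjusted p = 0.0771), -1.04 ± 0.31 for Arc (adjusted p = 0.0785), -1.23 ± 0.39 for Shank1 (adjusted p = 0.0814) and -1.34 ± 0.41 for Shank3 (adjusted p = 0.0794), none of them called. The part of blood, microglia and CA1 cells in these values was not tested.

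In MEC the same gap was 0.16, 0.36 and 0.36 after fear and -0.43, -0.17 and 0.12 after context, against -0.48, -0.22 and 0.31 in home cage. With the offsets, fear against home cage gave 1.17 ± 0.28 for Arc (adjusted p = 0.0381) and 1.14 ± 0.15 for Homer1 (adjusted p = 0.00155), both still called. Shank1 and Shank3, which had 0.50 ± 0.21 and 0.40 ± 0.15 without the offsets and were not called, had 0.04 ± 0.10 and -0.05 ± 0.09 with them. Averaged over the 4 regions, Homer1 gave 0.73 ± 0.09 after fear and 0.92 ± 0.09 after context with the offsets, and it remained the only member called.

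**Figure D2:**
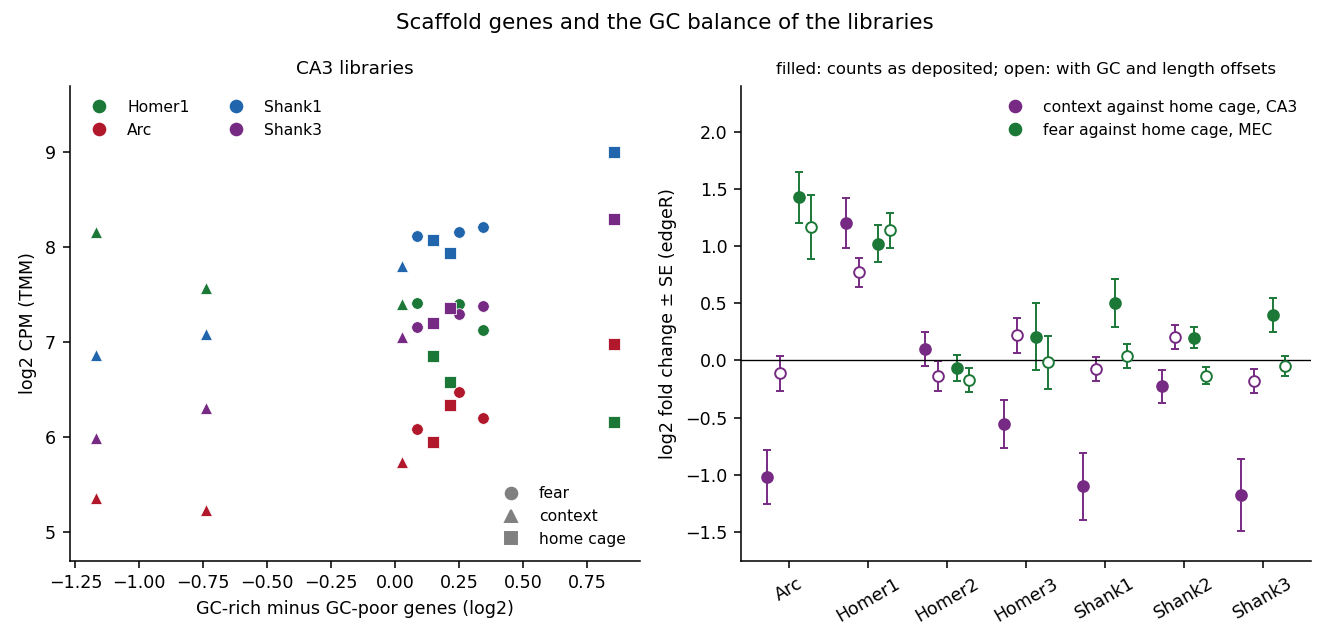
Left, log2 CPM of 4 members in the 9 CA3 libraries against the library's gap between GC-rich and GC-poor genes (log2); colours are genes and symbols are conditions. Right, log2 fold change ± SE of the 7 members for context against home cage in CA3 and fear against home cage in MEC, from the deposited counts (filled) and with GC and length offsets (open). Shank1, Shank3 and Arc in CA3 move to between -0.18 and -0.08 with the offsets, while Homer1 stays at 0.77.

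Shank2 (ENSMUSG00000037541; GRCm38 chr7:144001928-144424494, plus strand), Homer2 (ENSMUSG00000025813; chr7:81600481-81707527, minus strand) and Homer3 (ENSMUSG00000003573; chr8:70282827-70294361, plus strand) were called in no comparison with home cage. The log2 changes of Shank2 lay between -0.23 and 0.27 over the 8 comparisons, and those of Homer2 between -0.06 and 0.37. Homer2 averaged 124 ± 3.99 CPM after fear and 114 ± 20.5 CPM after context in CA3, against 116 ± 6.48 CPM in home cage (SD, n = 3 each), so its spread was small beside that of Homer1 in the same libraries. Homer3 had 53.2, 52.2 and 47.1 CPM after fear and 51.7, 23.7 and 33.9 CPM after context in CA3, against 54.9, 60.8 and 58.5 CPM in home cage. All its fear and context libraries lay below the home cage libraries, and context against home cage gave -0.55 ± 0.21 (adjusted p = 0.0809), or 0.22 ± 0.15 with the GC and length offsets. In CA3, 19.4% of genes had every fear library and 22.6% every context library below home cage. In CA1 Homer3 had 14.5, 26.6 and 19.3 CPM after fear and 11.5, 9.31 and 13.1 CPM after context, against 16.9, 14.2 and 22.1 CPM in home cage. The context libraries were the lowest 3 of the 9 there. In CA1, 15.1% of genes had every context library below every home cage library and 7.72% had every fear library above every context library. The mean level of the 5 CA3 pyramidal markers was also lowest in the CA1 context libraries. It was 3.74 to 5.46 log2 CPM after fear and 2.98 to 3.34 after context, against 3.62 to 5.12 in home cage. The part of CA3 cells in the CA1 values of Homer3 was not tested. Fear against context gave 0.83 ± 0.23 in CA1 (unadjusted p = 0.00278, edgeR adjusted p = 0.846) and 0.45 ± 0.14 over the 4 regions (adjusted p = 0.0569). Of the exon bases of Homer3, 25.41% lie opposite exons of Ddx49, an RNA helicase gene with a median count of 341 against 273 for Homer3, and its counts are uncertain because the strand setting is not known.

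**Figure D3:**
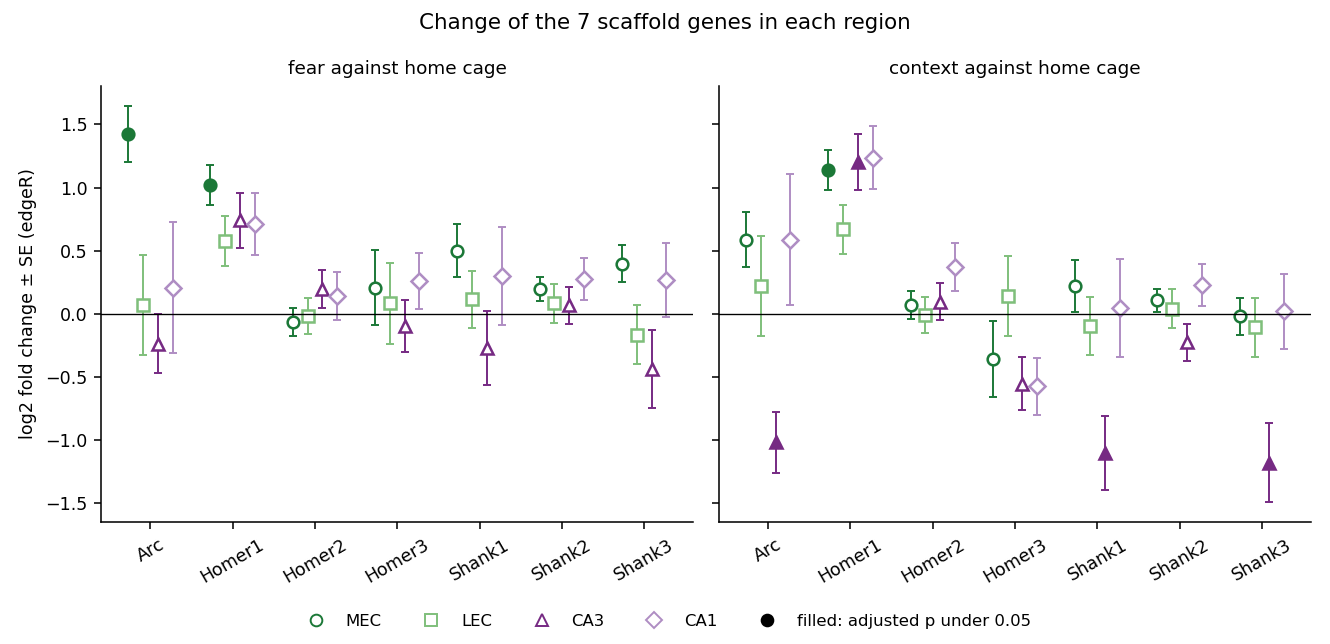
Log2 fold change ± SE (edgeR) of the 7 members for fear against home cage (left) and context against home cage (right) in MEC, LEC, CA3 and CA1; filled symbols had an adjusted p under 0.05. Homer1 lies above 0 in all 8 comparisons, from 0.58 to 1.23, and Arc, Shank1 and Shank3 lie near -1 after context in CA3.

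The members were next compared between regions, over all conditions. Of 42 tests (7 genes, 6 pairs of regions, in the fit of all 36 libraries) 22 were called, in pairs that called 17.4% (MEC against LEC), 39.8% (LEC against CA3), 46.6% (LEC against CA1), 38.4% (MEC against CA3), 43.6% (MEC against CA1) and 31% (CA3 against CA1) of all genes. Homer3, the Homer best known from Purkinje cells of the cerebellum, differed most. It averaged 2.91 ± 0.92 CPM in MEC, 2.30 ± 0.51 in LEC, 48.5 ± 12.1 in CA3 and 16.4 ± 5.46 in CA1 (SD, n = 9). The order was CA3, CA1, then MEC and LEC, and only MEC and LEC did not differ (log2 0.30 ± 0.17, adjusted p = 0.248). CA3 was above CA1 by 1.64 ± 0.15 (adjusted p = 6.57e-10), and LEC was below CA3 by a log2 change of -4.43 ± 0.18 (adjusted p = 4.2e-19). The 5 calls of Homer3 held under all 15 alternative fits of each.

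Homer2 had the reverse order of the hippocampal fields. It averaged 159 ± 15.6 CPM in MEC, 162 ± 15.6 in LEC, 118 ± 11.97 in CA3 and 260.1 ± 45.0 in CA1 (SD, n = 9), and CA3 lay below CA1 by a log2 change of -1.07 ± 0.09 (adjusted p = 8.89e-11). All pairs of regions passed but MEC and LEC (log2 -0.06 ± 0.09, adjusted p = 0.723). Homer1 passed in none of the 6 pairs, with averages of 171 ± 60.9 CPM in MEC, 181 ± 47.1 in LEC, 150.1 ± 55.6 in CA3 and 174 ± 73.4 in CA1.

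Arc averaged 65.5 ± 33.4 CPM in MEC, 31.6 ± 12.1 in LEC, 69.1 ± 29.7 in CA3 and 142 ± 66.6 in CA1. CA1 was highest and LEC lowest, and MEC and CA3, next to each other in the order, did not differ beyond their spread (log2 -0.20 ± 0.24, adjusted p = 0.574). MEC against LEC was called (log2 0.92 ± 0.25, adjusted p = 0.00871) and lost the call without the second fear libraries of the 4 regions, at 0.78 with an adjusted p of 0.0572. These averages include the fear libraries, in which Arc was higher in MEC. Shank3, the member disrupted in Phelan-McDermid syndrome of humans, averaged 85.1 ± 16.5 CPM in MEC, 82.3 ± 18.5 in LEC, 150.3 ± 78.1 in CA3 and 157 ± 42.1 in CA1. It passed in all 4 entorhinal against hippocampal pairs (log2 -0.93 to -0.82) and not within either (MEC against LEC 0.01 ± 0.18, CA3 against CA1 -0.10 ± 0.18). Shank1 passed below CA1 in LEC (-0.83 ± 0.20) and in MEC (-0.62 ± 0.20), and Shank2 passed in MEC above CA3 alone (0.24 ± 0.09, adjusted p = 0.0287). The MEC call of Shank1 was lost without the first home cage libraries of the 4 regions. The call of Shank2 held in 11 of 15 alternative fits, and in 5 of the 9 that left out 1 replicate number of a condition.

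Per kilobase of exon, Arc was the most abundant member in CA1, with 46.5 ± 21.8 CPM per kb, ahead of Shank1 with 33.2 ± 11.5 (SD, n = 9). Shank2 led in MEC (24.2 ± 1.96) and LEC (23.3 ± 3.04), and Shank1 in CA3 (24.6 ± 11.7). The order of the means turned with the condition in MEC and CA3. In MEC after fear Arc led, with 33.1 ± 11.1 against 26.0 ± 1.18 for Shank1 (SD, n = 3). The first fear library was the exception, with 24.8 for Arc against 26.9 for Shank2. In CA3 after context Homer1 led, with 17.0 ± 4.74 against 16.5 ± 3.18 for Shank2 (SD, n = 3). It led there in the second library alone (22.4 against 14.4 for Shank2), the one poorest in GC-rich transcripts. The first had 13.6 for Homer1 against 20.5 for Shank1, and the third 14.88 against 14.91 for Shank2. Homer3 was the least abundant of the 7 in MEC (0.845 ± 0.269), LEC (0.669 ± 0.148) and CA1 (4.77 ± 1.59), whereas in CA3 its 14.1 ± 3.51 CPM per kb lay above Homer2 (9.36 ± 0.948) and close to Homer1 (12.5 ± 4.64). These ranks between genes are descriptions and were not tested. They rest on the full annotated exon length of each gene.

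**Figure D4:**
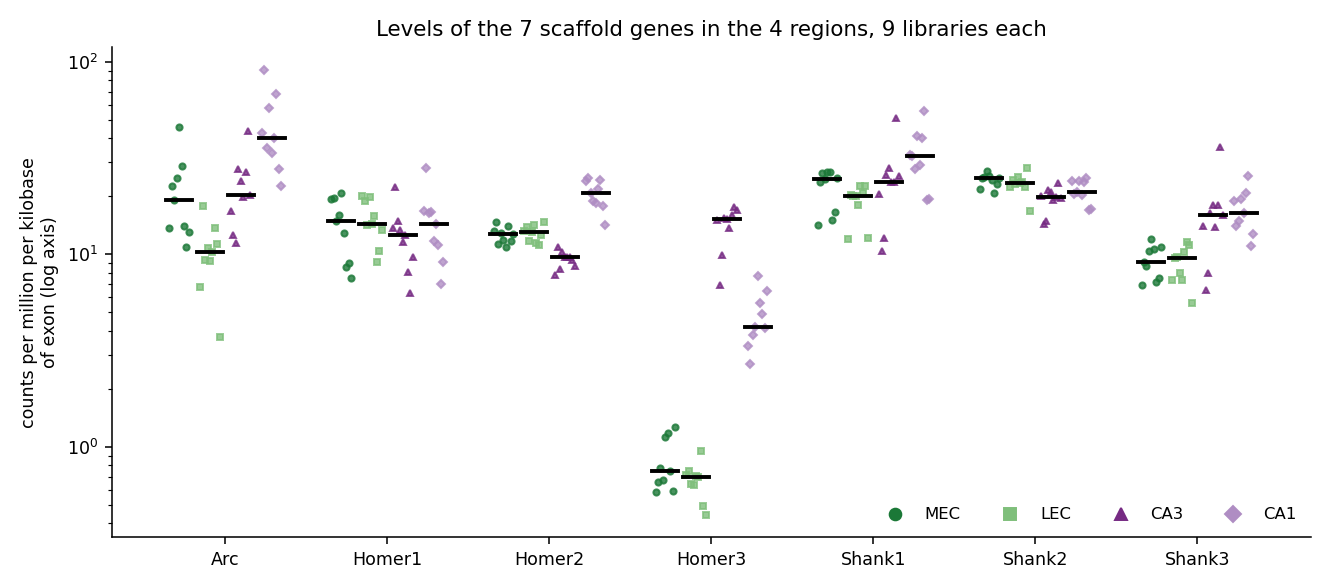
Level of each of the 7 members per kilobase of exon (log axis) in the 9 libraries of MEC, LEC, CA3 and CA1, with all conditions together; points are libraries and the black line is the median. Homer3 is far lower in MEC and LEC (means of 0.845 and 0.669) than in CA3 (14.1), and the points of Homer1 overlap between all 4 regions.

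Over the 36 libraries, after the mean of each region was subtracted from log2 CPM, members differed in which genes they followed among 10102 expressed genes. The correlations below describe libraries that share depth, base composition and condition, and carry no test. The 5 genes most like Homer1 were Ankrd33b (r = 0.928), Usp31 (0.911), Dennd5b (0.908), Nlk (0.903) and Spred1 (0.898), and r was 0.861 to 0.927 with the GC and length offsets. Those most like Arc were Nr4a1 (0.906), an immediate-early nuclear receptor, Per1 (0.886), a clock gene that is also induced by activity, Sbk1 (0.865), Midn (0.837) and Rundc1 (0.820). With the offsets, Nr4a1 gave 0.839, Per1 0.812, Sbk1 0.686, Midn 0.572 and Rundc1 0.623.

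Shank3 was most like Dlgap3 (0.981), whose protein binds Shank directly, then Map3k10 (0.977), Jph3 (0.971), Agap2 (0.970) and Tnk2 (0.969). These fell to between 0.582 and 0.702 with the offsets. Shank1 was most like Git1 (0.938), Agap2 (0.937), Shank3 (0.934), Rab11fip3 (0.931) and Dgkz (0.930), and the 5 genes most like Shank2 included Wnk2 (0.897), Rab11fip3 (0.894), Iqsec2 (0.889) and Mast2 (0.887). With the offsets the r of these genes fell to between 0.536 and 0.620 for Shank1 and between 0.370 and 0.565 for Shank2. Homer2 and Homer3 had no r above 0.811 (Zfp365, 0.720 with the offsets) and 0.789 (Napa, 0.545 with the offsets). Among the members, Arc and Homer1 had r = 0.229, or 0.681 with the offsets. Arc had 0.778 with Shank1, 0.706 with Shank2 and 0.718 with Shank3. With the offsets these were 0.448, 0.178 and 0.172.

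Genes of proteins that bind these scaffolds were set beside 2 lists of activity-regulated genes. All these lists were chosen with earlier results of these data known, so their counts below are descriptions and not a test. After fear in MEC, 2 of 11 Arc partners rose and none fell, among them Cacng2 (0.74 ± 0.11), the gene of the AMPA receptor auxiliary subunit stargazin. The median of the 11 was 0.18. Of 12 Homer partners 3 rose and 1 fell, with a median of 0.29. The store calcium channel genes Itpr1 (0.47 ± 0.09) and Itpr2 (0.39 ± 0.11) and the diacylglycerol lipase gene Dagla (0.89 ± 0.20) rose, and the ryanodine receptor gene Ryr3 (-0.86 ± 0.24) fell. Of 17 Shank partners and PSD-95 scaffolds 2 rose and none fell, with a median of 0.23: Dlgap2 (0.61 ± 0.12) and Dlgap1 (0.33 ± 0.09), which link Shank to PSD-95. The median of all genes tested was -0.01, and 5.68% of them were called higher and 3.88% lower. In the same comparison 8 of 12 rapid activity-regulated transcription factor genes rose and none fell (median 0.87), led by Egr1 (1.39 ± 0.12), Fosb (1.75 ± 0.20), Fos (1.15 ± 0.16) and Egr3 (1.60 ± 0.23). In the delayed activity-regulated list, 8 of 12 genes rose, with none lower (median 0.71), led by Bdnf (0.97 ± 0.14), Dusp4 (1.20 ± 0.18), Nptx2 (1.83 ± 0.33) and Sorcs3 (0.64 ± 0.13). Without any 1 of the fear or home cage libraries the number of partners called higher moved by over 1.5 times, to 3 or 4 in place of 7, or to 19 without home cage 3. The values of these lists in MEC, here and after context, are from fits without the GC and length offsets. The counts of these lists in MEC with the offsets are not reported here.

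After context in MEC none of the 40 partner genes was called with edgeR, 9 had an unadjusted p under 0.05 (DESeq2 was run but its values for these genes were not used here), and the medians were 0.09 for Arc partners, 0.21 for Homer partners and 0.16 for Shank partners, against -0.02 for all genes, of which 0.497% were called higher and 0.0736% lower. Of the rapid genes 4 rose there, Egr1 (1.16 ± 0.12), Fosb (1.37 ± 0.20), Fos (0.94 ± 0.16) and Egr2 (1.80 ± 0.34), and of the delayed genes 1 rose, the phosphatase gene Dusp4 (0.99 ± 0.18).

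After context in CA3, partners went both ways. The Homer-binding receptor gene Grm5 (0.68 ± 0.19) and the dynamin gene Dnm3 (0.79 ± 0.21) rose, while Ryr1 (-1.08 ± 0.29) and Agap2 (-1.13 ± 0.31), also called PIKE, fell, which made 2 of 12 Homer partners in each direction. Of 17 Shank partners, Abi1 (0.54 ± 0.16) and Dlg2 (0.66 ± 0.20), which encodes PSD-93, rose, and Dlgap3 (-2.02 ± 0.53) and Baiap2 (-0.87 ± 0.25) fell. Among 11 Arc partners the endophilin gene Sh3gl1 (-0.98 ± 0.27) and the drebrin gene Dbn1 (-0.88 ± 0.26) fell. The medians were 0.16, -0.08 and 0.03 in this order of lists, against -0.01 for all genes, of which 5.77% were called higher and 8.13% lower. All these adjusted p were 0.045 to 0.048. Of the delayed genes 6 of 12 rose and none fell, led by Nr4a2 (0.96 ± 0.18), Sorcs3 (0.59 ± 0.14), Nr4a3 (0.71 ± 0.19) and Ptgs2 (0.79 ± 0.21), and of the rapid genes 2 of 12 rose, Fosl2 (1.15 ± 0.22) and Fosb (0.91 ± 0.24). The rapid list as a whole did not rise: its mean level was 2.17 to 2.89 log2 CPM after context, against 2.39 to 3.48 in home cage. With the GC and length offsets, 1 of the 40 partners was called in place of 10, Dlgap3 (-0.73 ± 0.17, adjusted p = 0.04999). Agap2 gave -0.08 ± 0.13 and Dbn1 -0.05 ± 0.10 there, and Grm5 gave 0.39 ± 0.13. Of the delayed genes 2 were called with the offsets in place of 6, and of the rapid genes 3 in place of 2. None of the 40 partners, the rapid or the delayed genes was called when any 1 of the same 7 libraries was left out.

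Averaged over the 4 regions, 7 of 12 Homer partners rose and none fell after fear, led by Itpr1 (0.53 ± 0.08), Itpr2 (0.37 ± 0.06), Ryr2 (0.39 ± 0.09) and Dnm3 (0.34 ± 0.10), with a median of 0.31. Of 17 Shank partners 8 rose and none fell, led by Dlg3 (0.37 ± 0.07), which encodes SAP102, Dlgap2 (0.53 ± 0.10), Lrrc7 (0.50 ± 0.10), also called densin, and Dlgap1 (0.32 ± 0.08), with a median of 0.24. Of 11 Arc partners 4 rose, among them Cacng2 (0.45 ± 0.08), Camk2b (0.35 ± 0.09) and the ubiquitin ligase gene Rnf216 (0.28 ± 0.08), which targets Arc, and Sh3gl3 (-0.36 ± 0.10) fell, with a median of 0.17. After context 5 of 12 Homer partners rose and 1, Ryr1 (-0.51 ± 0.15), fell, led by Grm5 (0.37 ± 0.08), Itpr1 (0.35 ± 0.08) and Dnm3 (0.39 ± 0.10). Of 17 Shank partners 6 rose and none fell after context, led by Dlg3 (0.30 ± 0.07), Abi1 (0.26 ± 0.06), Lrrc7 (0.43 ± 0.10) and Dlgap1 (0.28 ± 0.08), and of 11 Arc partners 3 rose, among them Cacng2 (0.37 ± 0.08) and Rnf216 (0.23 ± 0.08). These shares can be read against 14.2% of all genes called higher and 9.94% lower after fear, and 13.5% higher and 8.58% lower after context, and the medians of all genes were -0.0034 after fear and -0.027 after context. Of the delayed genes 11 of 12 rose in each of these averages. With the GC and length offsets, 2 Homer partners rose and 1 fell after fear, and 1 rose and 1 fell after context. Over the 40 partners, 11 rose and 3 fell after fear with the offsets, in place of 19 and 1. Of the delayed genes 12 rose after fear and 11 after context with the offsets.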

How the data were processed

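Libraries were made with the Illumina TruSeq Stranded mRNA kit from TRIzol-extracted RNA, per the labels' protocols. The deposited values are raw counts of reads per Ensembl gene, made with Trimmomatic 0.33, STAR 2.7.10b and HTSeq 2.0.1 on mm10, per the submitters' processing notes; the sources used here give neither the counting annotation nor its strand setting. Each single-library file held the same counts as the table. Symbols, exon lengths and GC content came from GENCODE M21 (GRCm38), which named 35533 of 37315 identifiers (95.2%).

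The members and gene lists were chosen with earlier results of these data known. Each region was fitted alone (9 libraries) with edgeR 4.0.16 (R 4.3.3): filterByExpr, TMM, robust quasi-likelihood test, Benjamini-Hochberg adjustment over all genes, threshold 0.05. The SE of a log2 change was derived from this test, as the size of the change divided by the square root of its F statistic. Averages over regions, region pairs and differences of responses came from 1 fit of all 36 libraries, which had no term for the mouse. CPM is the count per 1000000 of the library total, per kb over merged exons. Named are all members, every called gene of a list or the 4 of smallest p, and the 5 genes most like each member; some genes that this rule names are counted but not reported here. Likeness used genes averaging at least 3 log2 CPM. GC and length offsets were splines with 5 degrees of freedom per library. The test was checked on simulated data.

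Within a region, same-numbered libraries of different conditions deviated together only for CA1 fear and home cage (r = 0.304, 0.397 and 0.232 over 10149 genes) and MEC context and home cage (r = 0.604, 0.331 and 0.759). No label ties the numbers to mice, so no pairing was used in the results above. Same-numbered libraries of different regions, which may come from 1 mouse, were not compared.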

Additional observations from a re-analysis of the deposited data

How the results depend on the processing

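The number of members called depended on the fit. DESeq2 called 1 member in place of 0 for fear and for context against home cage in CA1, for fear against home cage and fear against context in CA3, for fear against context in MEC and for fear against context over the 4 regions. One fit of all 36 libraries called 1 for context against home cage in CA1 and for fear against home cage in CA3, both Homer1, and 1 in place of 2 (fear, without Arc) and 0 in place of 1 (context) against home cage in MEC. GC and length offsets called 1 in place of 0 for fear and 1 in place of 4 for context against home cage in CA3, with or without the replicate block. They also called Shank3 lower in MEC than in LEC (log2 -0.20, and -0.20 with the block), where the fit without them gave 0.01 and no call. Without a filter on low counts, and with the replicate block, 2 of 4 were called for context against home cage in CA3, and the block called 4 in place of 2 for fear against home cage in MEC (Shank1 and Shank3 were added). Where same-numbered libraries deviated together, the replicate block changed no call of a member. A covariate for the mean level of dentate granule markers (CA3 and CA1) or oligodendrocyte markers (MEC) called 0 in place of 4 for context in CA3 and 0 in place of 2 (fear) and 1 (context) in MEC, all against home cage. In MEC the marker level went with condition, so the calls lost there cannot tell one from the other. Without context 2 and home cage 2 together, 0 were called for context in CA3. Leaving out 1 library gave 0 to 2 calls for fear and 0 to 2 for context in CA1, 0 to 5 for context in CA3, 2 to 5 for fear and 0 to 1 for context in MEC, all against home cage, and 0 to 5 for fear against context in CA3. The highest values came without home cage 1 in CA1, without context 1 in CA3 and without home cage 3 in MEC. Leaving out 1 replicate number of a condition in all regions gave 1 to 2 calls for fear and 1 to 2 for context against home cage over the 4 regions, 0 to 1 for fear against context, and 0 to 4 for region by condition, the highest of these without home cage 1. The cause of these changes was not tested. The calls of Homer1 over the 4 regions held in all 16 alternatives each (log2 0.69 to 0.86 after fear and 0.84 to 1.20 after context). Over 3066 refitted values of single members, 2950 kept their side of the threshold, 59 lost a call and 55 gained one. Another 2 were called in the opposite direction to an uncalled value. Changes of sign were met in 195 refits of uncalled values, these 2 included. With 3 libraries a group, changes as small as those of Homer2 and Shank2 cannot be told from the spread.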
